A study of Rattus norvegicus with 24 samples.

Results

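The proteasome genes of rat liver were examined in 24 male Wistar rats fed for 42 days a diet with 1% cholesterol. The diet was supplemented with 5% freeze-dried kiwifruit of the cultivar Geneva (ChGENE), with 5% of the cultivar Hayward (ChHAYW), or was given alone (Ch), and all 3 groups, the Ch controls included, received the cholesterol. Each group had 8 rats, and the liver RNA of each rat was hybridized to 1 one-color Agilent rat array. A member was every gene whose array name begins with Psm followed by a letter from a to g and a number, without the 5 immunoproteasome genes Psmb8, Psmb9, Psmb10, Psme1 and Psme2. This gave 45 genes of the 19958 gene names on the array, covered by 52 of the 30367 probes, and each gene was read at its brightest probe. Of the 45 genes, 16 encode the core particle, 17 the regulatory particle, 7 assembly chaperones and 3 alternative caps or an inhibitor. The other 2 were matched by the letters of their names. Psmc3ip encodes a partner protein of Psmc3 known for its work in meiotic recombination, and Psma3l is named as a Psma3-like gene. The Psma3l probe lies 1059 bases from the Psma3 probe on chromosome 6, and whether it reads Psma3 itself was not tested. Levels are log2 signals relative to the 75th percentile of the same array, so a level of 0 is that percentile.

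The proteasome degrades proteins that carry ubiquitin chains. Its barrel-shaped core particle is built of outer rings of alpha subunits, which gate the entrance, and inner rings of beta subunits, of which Psmb6, Psmb7 and Psmb5 carry the caspase-like, trypsin-like and chymotrypsin-like peptidase sites. The regulatory particle sits on the core, and consists of a base with a ring of ATPases (Psmc1 to Psmc6) that unfolds the substrate and a lid that holds the deubiquitinase Psmd14. In mammals, the genes of both particles can be induced together by the transcription factor Nfe2l1 when proteasome activity is low.

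The probes that measured the 3 catalytic subunits are shown because the value of a subunit is the signal of such a stretch of 60 bases. They lie on the rn4 build at chr15:32690134-32690193 (Psmb5), chr10:57371368-57371427 (Psmb6) and chr3:18413231-18433105 (Psmb7), the last of them with a gap between exons.
Psmb5: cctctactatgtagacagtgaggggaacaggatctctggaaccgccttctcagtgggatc
Psmb6: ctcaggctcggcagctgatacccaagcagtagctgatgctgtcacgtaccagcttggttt
Psmb7: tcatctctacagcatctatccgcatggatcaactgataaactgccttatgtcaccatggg
RefSeq names 0 further copies of Psmb5, 3 of Psmb6 and 2 of Psmb7 (pseudogenes or genes named as like them), and 17 of the 45 members have 46 such copies together. Whether a copy contributed to a probe's signal was not tested.

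The probes of Psmb5 and Psmb6 varied differently among the rats. Whether their promoters have a part in this was not tested, and the promoters are shown as sequence only. Each runs from 250 bases before to 50 bases after the start of the gene in RefSeq, on the GRCr8 build, at chr15:32047330-32047629 on the minus strand and at chr10:55737638-55737937 on the plus strand. Capitals mark TGACNNNGC, the core letters of the antioxidant response element.
Psmb5: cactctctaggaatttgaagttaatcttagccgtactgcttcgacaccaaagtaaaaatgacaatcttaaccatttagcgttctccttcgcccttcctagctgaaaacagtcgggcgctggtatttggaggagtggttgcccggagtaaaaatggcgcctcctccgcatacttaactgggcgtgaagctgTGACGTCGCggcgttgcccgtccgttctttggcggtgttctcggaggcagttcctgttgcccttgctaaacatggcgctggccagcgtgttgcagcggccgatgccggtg
Psmb6: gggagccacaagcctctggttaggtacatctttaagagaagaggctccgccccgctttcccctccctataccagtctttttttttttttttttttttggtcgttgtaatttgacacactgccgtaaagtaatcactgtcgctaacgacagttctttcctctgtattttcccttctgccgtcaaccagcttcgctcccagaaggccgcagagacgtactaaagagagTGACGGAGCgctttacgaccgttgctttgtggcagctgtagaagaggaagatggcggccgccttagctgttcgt
The match lies 60 bases before the start in Psmb5 and 24 bases before it in Psmb6. Of the 39 members with a promoter in the table, 8 held TGACNNNGC on either strand (20.5%), against 12.1% of all 33469 promoters. The other 6 were Psma3, Psmb2, Psmd1, Psmd3, Psmd9 and Psme4. CCAAT, also on either strand, was found in 20 members (51.3%, against 37.5% of all promoters), and GGGCGG in 29 members (74.4%, against 33.1%). These are matches of letters, and no binding was measured.

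The arrays of the diets differed in brightness. The 75th percentile had a median of 675 in ChGENE (388 to 775), 731 in ChHAYW (409 to 1049) and 421 in Ch (188 to 653). Each diet had a slide to itself, which means that an effect of the slide cannot be told apart from one of the diet in any value given here. Each of the 6 hepatocyte markers was above background on all 24 arrays, as liver would give. Both kiwifruit diets were set against the same 8 Ch rats, so these comparisons are not independent of each other.

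In 44 of the 45 genes the brightest probe was above background in all 24 rats, and 0 of the 45 genes passed the test in any of the 3 comparisons (limma, Benjamini-Hochberg adjusted p under 0.05 over all 30367 probes and a change of at least 1.3-fold). Among all probes 0.319% passed in ChGENE against Ch, 0% in ChHAYW against Ch and 0.00659% in ChGENE against ChHAYW. The smallest adjusted p of a member was 0.0818 in ChGENE against Ch (Psma8), 0.110 in ChHAYW against Ch (Psmg2) and 0.513 in ChGENE against ChHAYW (Psma8), each from limma with 8 rats per diet. In 0 members did the 8 values of one diet lie wholly above or below those of the other, against 0.692%, 0.0593% and 0.0922% of all probes in the 3 comparisons in this order.

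Without adjustment, 3 members reached p under 0.05 with at least 1.3-fold in ChGENE against Ch, all of them higher (Psmc4, Psmd14 and Psma8, the last of which turned negative with another background correction), against 3.47% of all probes higher by this rule. In ChHAYW against Ch there were 4, also all higher (Psmc4, Psmd14, Psme3 and Psmg2), against 3.05% of all probes. For members that were lower the count was 0 in both comparisons, while 21.1% and 19.7% of all probes were lower by this rule. Dim probes weigh on these shares. Of the 9891 genes above background on every array, 708 and 627 were lower by this rule, and 376 and 320 were higher. In ChGENE against ChHAYW 1 member was higher (Psma8, against 3.09% of all probes) and 0 were lower (against 2.85%). By p under 0.05 alone, the members numbered 5, 5 and 3 in the 3 comparisons, where 26.9%, 25% and 8.31% of all probes reached it. Of the 9891 genes above background on every array, 1496, 1407 and 1144 reached it.

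The members' fold changes were small. Their median log2 fold change was 0.05 in ChGENE against Ch, 0.06 in ChHAYW against Ch and 0.02 in ChGENE against ChHAYW. The same median over all 19958 genes was -0.13, -0.15 and -0.01, and over the 9891 genes above background on every array it was -0.03, -0.03 and -0.01. Positive values were found in 31, 25 and 25 of the 45 genes, against 36%, 35.2% and 48.8% of all genes. Among the genes above background on every array, 44.4%, 45.7% and 48.2% were positive. The spread among rats of a diet was also narrow. The pooled SD had a median of 0.26 log2 units over the members, against 0.46 over all genes and 0.31 over the genes above background on every array. These sets of genes were not matched for brightness or for the number of spots per probe.

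**Figure D1:**
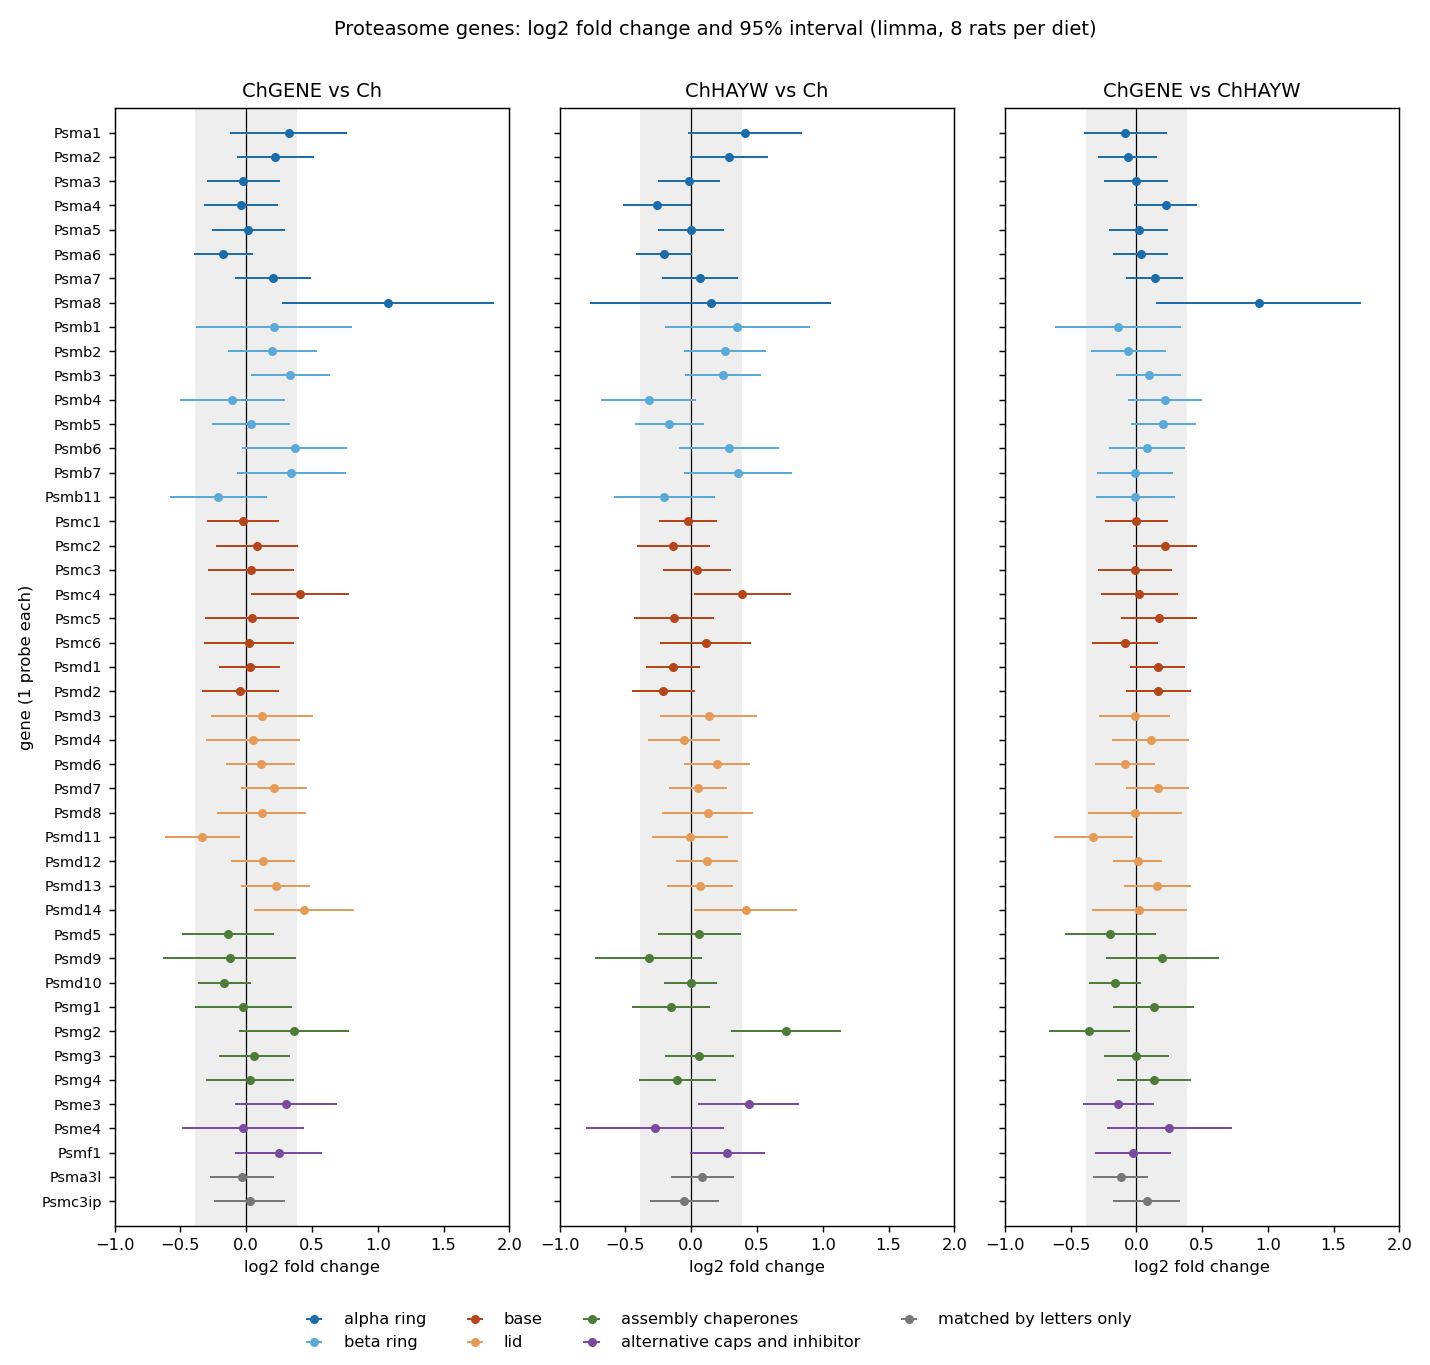
Log2 fold change of each of the 45 genes in the 3 comparisons, 1 row per gene, colored by its place in the complex. Points are limma estimates from 8 rats per diet, bars are 95% intervals, and the gray band spans a change of 1.3-fold in either direction. Most points lie inside the band, and Psma8 stands far to the right in both comparisons of ChGENE.

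The 95% interval of the log2 fold change lay wholly inside a change of 1.3-fold in either direction for 16 members in ChGENE against Ch, 16 in ChHAYW against Ch and 24 in ChGENE against ChHAYW, or 35.6%, 35.6% and 53.3% of the 45. Over all genes these shares were 9.38%, 10.6% and 17.8%, and over the genes above background on every array they were 18.2%, 20.6% and 30.9%. In 10 members the interval stayed inside in all 3 comparisons, against 4.61% of all genes and 9.19% of those above background on every array. They were the alpha subunits Psma3 and Psma5, the ATPases Psmc1 and Psmc3, the large scaffold subunit Psmd1 of the base, the lid subunit Psmd12, the assembly chaperones Psmd10 and Psmg3, and the letter matches Psma3l and Psmc3ip. Psma5 and Psmd12 were averaged over 10 spots per array, Psmg3 was read at 1 spot and the others at 2. Psmd10, also known as the oncoprotein gankyrin, had the smallest pooled SD of the members, 0.11. Of the genes above background on every array, 0.344% had a smaller one. This rests on the scaling to the 75th percentile. With scaling to the spike-in probes 0 of these 10 members stayed inside the bound in each comparison, and with array brightness as a covariate 6 stayed inside in ChGENE against Ch, 8 in ChHAYW against Ch and 10 in ChGENE against ChHAYW. In whole liver, fewer cells of a type and less RNA per cell cannot be told apart.

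Among the catalytic subunits, Psmb6 (caspase-like) had levels of 1.84, 2.19 and 2.82 in ChGENE rats (lowest, median, highest), 1.77, 2.15 and 2.42 in ChHAYW rats and 1.22, 1.79 and 2.48 in Ch rats. Psmb7 (trypsin-like) had 1.70, 2.11 and 2.63 in ChGENE rats, 1.77, 2.20 and 2.43 in ChHAYW rats and 1.05, 1.85 and 2.34 in Ch rats. In both genes the Ch rats reached lower than any kiwifruit-fed rat, with Ch 4 lowest, but Ch 3 lay near or above the highest ChHAYW rat. The array of Ch 4 was the dimmest of all, with a 75th percentile of 188. The log2 fold change of Psmb6 was 0.37 in ChGENE against Ch (95% interval -0.03 to 0.77, limma adjusted p = 0.221, n = 8 per diet) and 0.29 in ChHAYW against Ch (-0.09 to 0.67, adjusted p = 0.317). That of Psmb7 was 0.34 (-0.07 to 0.76, adjusted p = 0.280) and 0.36 (-0.05 to 0.76, adjusted p = 0.257). Without Ch 4 these values were smaller, 0.28 and 0.20 for Psmb6 and 0.24 and 0.25 for Psmb7. ChGENE and ChHAYW differed by 0.08 in Psmb6 and by -0.01 in Psmb7, with limma intervals of -0.21 to 0.37 and -0.30 to 0.28.

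Psmb5 (chymotrypsin-like), the subunit that bortezomib binds, did not share this pattern. Its levels were 3.84, 4.27 and 4.59 in ChGENE rats, 3.81, 4.05 and 4.32 in ChHAYW rats and 3.92, 4.18 and 4.73 in Ch rats. Here Ch 4, the rat with the dimmest array, was the highest of the Ch rats and not the lowest. The 3 diets overlapped over most of their range. Its log2 fold change was 0.04 in ChGENE against Ch (95% interval -0.26 to 0.33, limma adjusted p = 0.891, n = 8 per diet), -0.17 in ChHAYW against Ch (-0.43 to 0.10, adjusted p = 0.398) and 0.20 in ChGENE against ChHAYW (-0.04 to 0.45, adjusted p = 0.687).

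**Figure D2:**
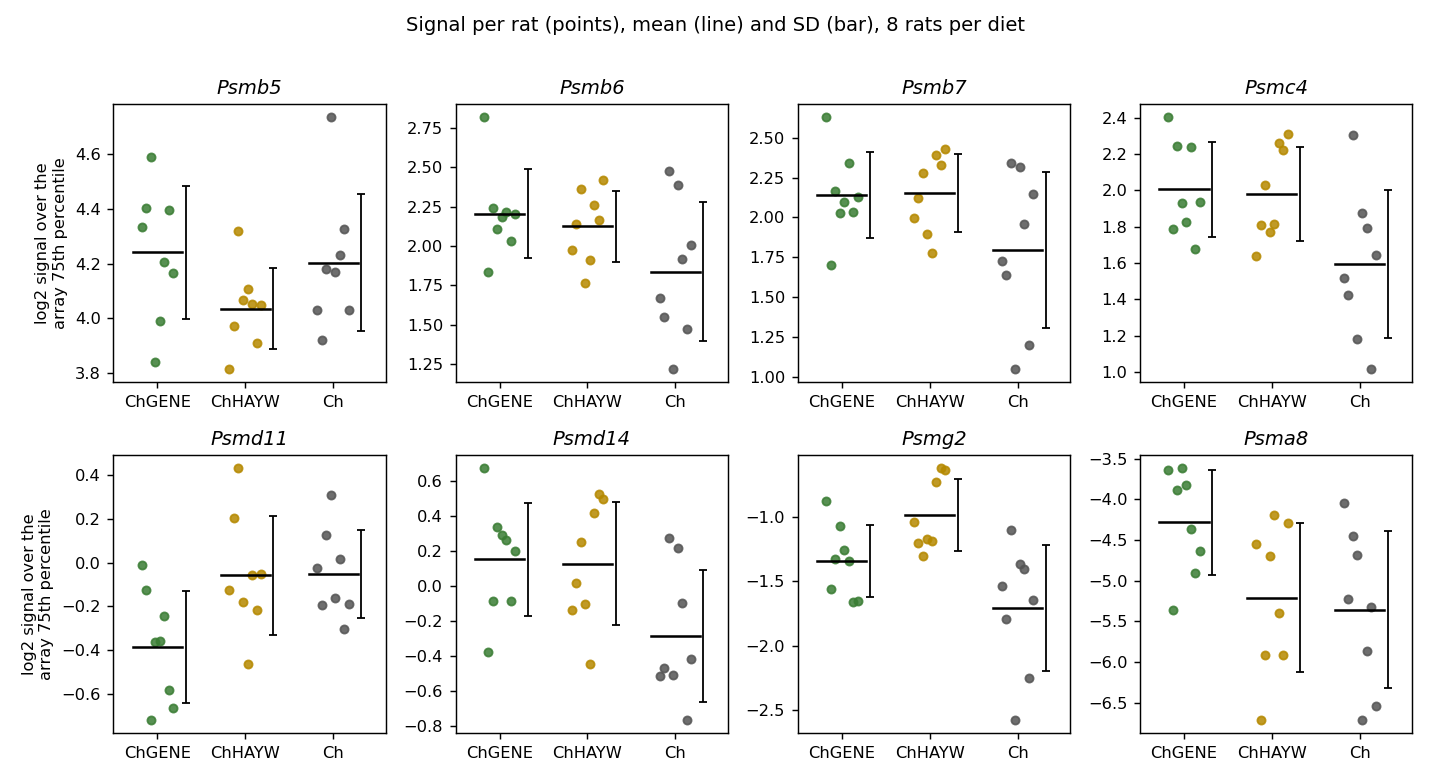
Level of 8 named members in each rat, on the log2 scale relative to the array's 75th percentile, with ChGENE left, ChHAYW in the middle and Ch right. Points are rats (n = 8 per diet), lines are means and bars are SD, and each panel has its own axis. The diets overlap in every panel, and the ChHAYW rats of Psmg2, between -1.30 and -0.62, all lie above 7 of the 8 Ch rats but not above Ch 3 at -1.10.

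The other beta subunits carry no peptidase site, apart from the thymus-specific Psmb11. Psmb3 had levels of 3.50, 3.64 and 4.06 in ChGENE rats, 3.23, 3.66 and 3.83 in ChHAYW rats and 3.01, 3.32 and 3.83 in Ch rats. Its log2 fold change was 0.33 in ChGENE against Ch (95% interval 0.03 to 0.64, limma adjusted p = 0.142, n = 8 per diet) and 0.24 in ChHAYW against Ch (-0.05 to 0.53, adjusted p = 0.276). RefSeq names 10 further copies of Psmb3. Over the 8 beta subunits the median log2 fold change was 0.20 in ChGENE against Ch, 0.25 in ChHAYW against Ch and 0.04 in ChGENE against ChHAYW. Psmb11 had a level of -3.46 in ChGENE, -3.57 in ChHAYW and -3.43 in Ch rats (medians), and its second probe exceeded background in 3 of the 24 rats.

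Among the alpha subunits, Psma2 had a log2 fold change of 0.22 in ChGENE against Ch and 0.29 in ChHAYW against Ch (95% intervals -0.07 to 0.52 and -0.01 to 0.58 from limma). Psma4 and Psma6 pointed the other way in ChHAYW against Ch. Psma4 had levels of 3.57, 3.91 and 4.04 in ChHAYW rats and 3.88, 4.13 and 4.55 in Ch rats, with a log2 fold change of -0.26 (limma adjusted p = 0.197, n = 8 per diet). Psma6 had 5.27, 5.40 and 5.66 in ChGENE rats, 5.24, 5.39 and 5.64 in ChHAYW rats and 5.47, 5.63 and 5.77 in Ch rats. In each kiwifruit diet 5 of the 8 rats lay below the lowest Ch rat in Psma6. The log2 fold change was -0.21 in ChHAYW against Ch (adjusted p = 0.213) and -0.17 in ChGENE against Ch (adjusted p = 0.310). Over the 8 alpha subunits the medians were 0.11, 0.03 and 0.03 in the 3 comparisons.

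Psma8, an alpha subunit known from the mouse testis, had the largest fold change of the 45 members in both comparisons of ChGENE. Among the members' brightest probes, that of Psma8 was above background on the fewest arrays. Its brightest probe exceeded background in 6 ChGENE, 4 ChHAYW and 2 Ch rats, 12 of 24 in all. Levels were -5.36, -4.13 and -3.62 in ChGENE rats, -6.71, -5.05 and -4.20 in ChHAYW rats and -6.72, -5.28 and -4.05 in Ch rats. The log2 fold change was 1.08 in ChGENE against Ch (95% interval 0.28 to 1.88, limma adjusted p = 0.0818, n = 8 per diet) and 0.93 in ChGENE against ChHAYW (0.15 to 1.71, adjusted p = 0.513). The other probes of Psma8, above background on 1 and 0 arrays, had log2 fold changes of -1.24 and -0.52 in ChGENE against Ch. With the normexp background correction the brightest probe itself had -0.15, so no direction is given for this gene.

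In the regulatory particle, 17 genes were measured, 8 of the base and 9 of the lid. The ATPase Psmc4 had levels of 1.67, 1.93 and 2.40 in ChGENE rats, 1.64, 1.92 and 2.31 in ChHAYW rats and 1.01, 1.58 and 2.30 in Ch rats. Its log2 fold change was 0.41 in ChGENE against Ch (95% interval 0.04 to 0.78, limma adjusted p = 0.145, n = 8 per diet) and 0.39 in ChHAYW against Ch (0.02 to 0.76, adjusted p = 0.184). Without Ch 3, whose level of 2.30 was the highest of its diet, the call changed for ChGENE against Ch, with a log2 fold change of 0.51 and a limma adjusted p of 0.0384. Psmc2, another ATPase, had a log2 fold change of 0.22 in ChGENE against ChHAYW (adjusted p = 0.656), and Psmd1 had 0.16 there (adjusted p = 0.711).

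Psmd14, the deubiquitinase that removes ubiquitin chains from substrates before they enter the core, had levels of -0.38, 0.23 and 0.67 in ChGENE rats, -0.45, 0.13 and 0.52 in ChHAYW rats and -0.77, -0.44 and 0.27 in Ch rats. Its log2 fold change was 0.44 in ChGENE against Ch (95% interval 0.06 to 0.82, limma adjusted p = 0.129, n = 8 per diet) and 0.41 in ChHAYW against Ch (0.02 to 0.80, adjusted p = 0.178). The lid subunit Psmd11 had the lowest log2 fold change of the 45 members in ChGENE against Ch. Its levels were -0.72, -0.36 and -0.01 in ChGENE rats, -0.47, -0.09 and 0.43 in ChHAYW rats and -0.30, -0.09 and 0.31 in Ch rats, so that 5 of the 8 ChGENE rats lay below the lowest Ch rat. The log2 fold change was -0.33 in ChGENE against Ch (-0.62 to -0.05, adjusted p = 0.125) and -0.33 in ChGENE against ChHAYW (-0.62 to -0.03, adjusted p = 0.557), and scaling to the spike-in probes turned the first of these to 0.13. Another lid subunit, Psmd13, had 0.22 in ChGENE against Ch (adjusted p = 0.265). The medians were 0.03, -0.08 and 0.09 over the base and 0.12, 0.12 and 0.01 over the lid in the 3 comparisons.

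Of the assembly chaperones, Psmg2, which pairs with Psmg1 to place the alpha subunits in their ring, had the smallest unadjusted p of all members. Its levels were -1.66, -1.34 and -0.88 in ChGENE rats, -1.30, -1.11 and -0.62 in ChHAYW rats and -2.58, -1.59 and -1.10 in Ch rats. The log2 fold change was 0.72 in ChHAYW against Ch (95% interval 0.30 to 1.14, limma unadjusted p = 0.00202, adjusted p = 0.110, n = 8 per diet), 0.37 in ChGENE against Ch (-0.05 to 0.79, adjusted p = 0.250) and -0.36 in ChGENE against ChHAYW (-0.67 to -0.05, adjusted p = 0.530). Without ChHAYW 3, or without Ch 3, Psmg2 passed the test in ChHAYW against Ch, and the smallest limma adjusted p was 0.0302. Its partner Psmg1 had a log2 fold change of -0.15 there, and the 7 chaperones had medians of -0.02, -0.0044 and 0.00040 in the 3 comparisons. Psmd10 had -0.16 in ChGENE against ChHAYW (adjusted p = 0.687). Psmd9 was read by a pair of probes above background on all arrays, which gave -0.13 and 0.13 in ChGENE against Ch and -0.32 and -0.08 in ChHAYW against Ch.

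Psme3, the cap that opens the core in the nucleus without need of ubiquitin, had levels of -0.91, -0.61 and -0.26 in ChGENE rats, -0.78, -0.54 and -0.19 in ChHAYW rats and -1.83, -0.80 and -0.39 in Ch rats. For this cap the log2 fold change was 0.44 in ChHAYW against Ch (95% interval 0.05 to 0.82, limma adjusted p = 0.155, n = 8 per diet) and 0.30 in ChGENE against Ch. The proteasome inhibitor Psmf1 had 0.27 in ChHAYW against Ch at its brightest probe (adjusted p = 0.217) and 0.70 at its other probe. The cap Psme4, known for its part in sperm development and acetylated histone turnover, had -0.03 and 0.00 at its probes in ChGENE against Ch. The probes of Psmg4 pointed the same way in ChGENE against Ch, with 0.03 and 0.08.

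Set against each other, the core and the regulatory particle differed little. The median log2 fold change of the 16 core genes was 0.20 in ChGENE against Ch, 0.11 in ChHAYW against Ch and 0.03 in ChGENE against ChHAYW, and that of the 17 regulatory genes was 0.08, 0.05 and 0.02. Without Psma8 and Psmb11 the core medians were 0.20, 0.15 and 0.03. In each rat, the mean deviation of 14 core genes (Psma8 and Psmb11 left out) from the Ch mean was taken beside that of the regulatory genes. The core mean lay between -0.12 and 0.37 in ChGENE rats, -0.03 and 0.23 in ChHAYW rats and -0.26 and 0.33 in Ch rats. The regulatory mean lay between -0.15 and 0.32 in ChGENE rats, -0.11 and 0.17 in ChHAYW rats and -0.16 and 0.36 in Ch rats. Core minus regulatory averaged 0.04 ± 0.12 in ChGENE rats and 0.04 ± 0.06 in ChHAYW rats (SD, n = 8), with an SD of 0.10 around 0 in Ch rats. The diet means of both particles thus lay within the range of the Ch rats, and no test was made of these means, which were taken over genes chosen with earlier results known.

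**Figure D3:**
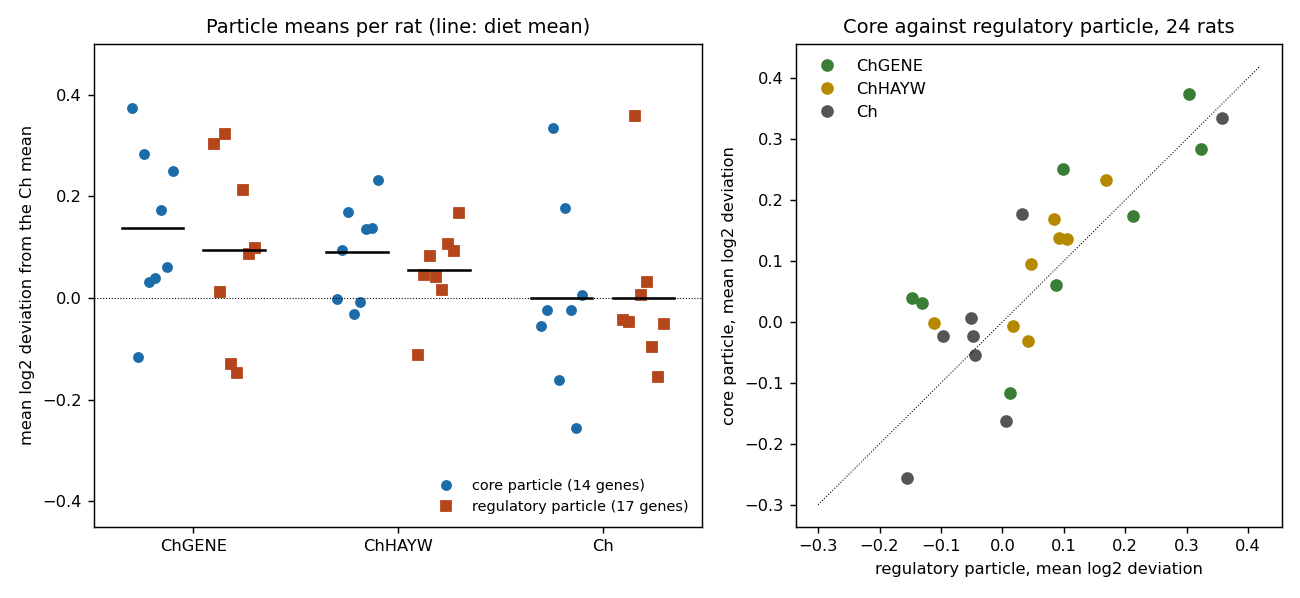
Left, mean log2 deviation from the Ch mean of the core particle (circles, 14 genes) and of the regulatory particle (squares, 17 genes) in each rat, by diet, with diet means as lines. Right, the same core mean against the regulatory mean for the 24 rats, with the line of equality dotted. Rats ChGENE 1, ChGENE 3 and Ch 3 stand at the upper right.

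Rats differed more than diets. ChGENE 1, ChGENE 3 and Ch 3 had the 3 highest core means (0.37, 0.28 and 0.33) and the 3 highest regulatory means (0.30, 0.32 and 0.36). Around their diet means, the core and the regulatory means of the 24 rats had a Pearson's r of 0.80, as a description of these arrays, which both means share. Within the particles the genes did not move as 1 block. Median pairwise r was 0.33 over 91 pairs of core genes, 0.40 over 136 pairs of regulatory genes and 0.31 over the 238 pairs between them. Psmb2, Psma7, Psmb6, Psmb7, Psmb3, Psma1 and Psma2 followed the mean of the other core genes with r between 0.72 and 0.89, while Psmb5, Psma3, Psma4 and Psmb4 had r between -0.43 and -0.12 (n = 24 rats, deviations from diet means). In the regulatory particle, Psmc3 had the highest r with the rest of its particle (0.92), and Psmd11 had the lowest (0.07).

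These subsets differed in how their level moved with the brightness of the array. Within diets, r between a member's level and the log2 75th percentile of its array ranged from -0.81 (Psmb11) to 0.83 (Psmg2) over the 45 members, with a median of 0.25. It exceeded 0.5 in 14 members and lay below -0.5 in 6. Over all genes 10.1% exceeded 0.5 and 34.2% lay below -0.5, and over the genes above background on every array these shares were 15.3% and 19.8%. The percentile is also subtracted from every level, so level and brightness share a term, and these r are descriptions with n = 24. Psma1 had r = 0.79 (Spearman's rho 0.77, r = 0.72 without the 2 arrays farthest from the median brightness), Psmb7 had 0.69 (rho 0.65, 0.58 without those arrays), Psmb6 had 0.62 (rho 0.56, 0.49) and Psmc4 had 0.62 (rho 0.67, 0.56). Psmb5 had -0.58 (rho -0.50, -0.39) and Psmb4 had -0.63 (rho -0.58, -0.42).

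The members' fold changes against the dimmer Ch arrays ran along this measure. The 14 members with r above 0.5 had a median log2 fold change of 0.26 in ChGENE against Ch (13 of 14 positive) and 0.32 in ChHAYW against Ch (14 of 14 positive). The other 31 members had 0.03 (18 positive) and -0.02 (11 positive). Across the 45 genes, which are not independent replicates and share the arrays, Spearman's rho between the brightness r and the log2 fold change was 0.70 in ChGENE against Ch and 0.92 in ChHAYW against Ch. This relation was not computed over all genes, so it cannot be called particular to the proteasome genes. With the brightness of each array as a covariate in limma, a fit chosen after seeing these values, Psmb6 had a log2 fold change of -0.04 in ChGENE against Ch and -0.02 in ChHAYW against Ch, Psmb7 had -0.10 and -0.02, Psmc4 had 0.09 and 0.08, and Psmg2 had -0.07 and 0.23. Psma8 had 0.98 (95% interval -0.03 to 2.00) and Psmd11 had -0.27 (-0.60 to 0.06) in ChGENE against Ch, so that both intervals included 0. The sign of the log2 fold change turned in 26 of the 45 members in ChGENE against Ch, 27 in ChHAYW against Ch and 3 in ChGENE against ChHAYW. In that fit the core median was -0.01 in both comparisons with Ch and the regulatory median was 0.01 in both. The median over all genes moved as well, from -0.13 to -0.03 in ChGENE against Ch and from -0.15 to 0.02 in ChHAYW against Ch. Sign turns were not counted over all genes. Brightness differed between the diets, so the covariate also takes up what the diets themselves changed, and slide, brightness and diet cannot be told apart here.

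**Figure D4:**
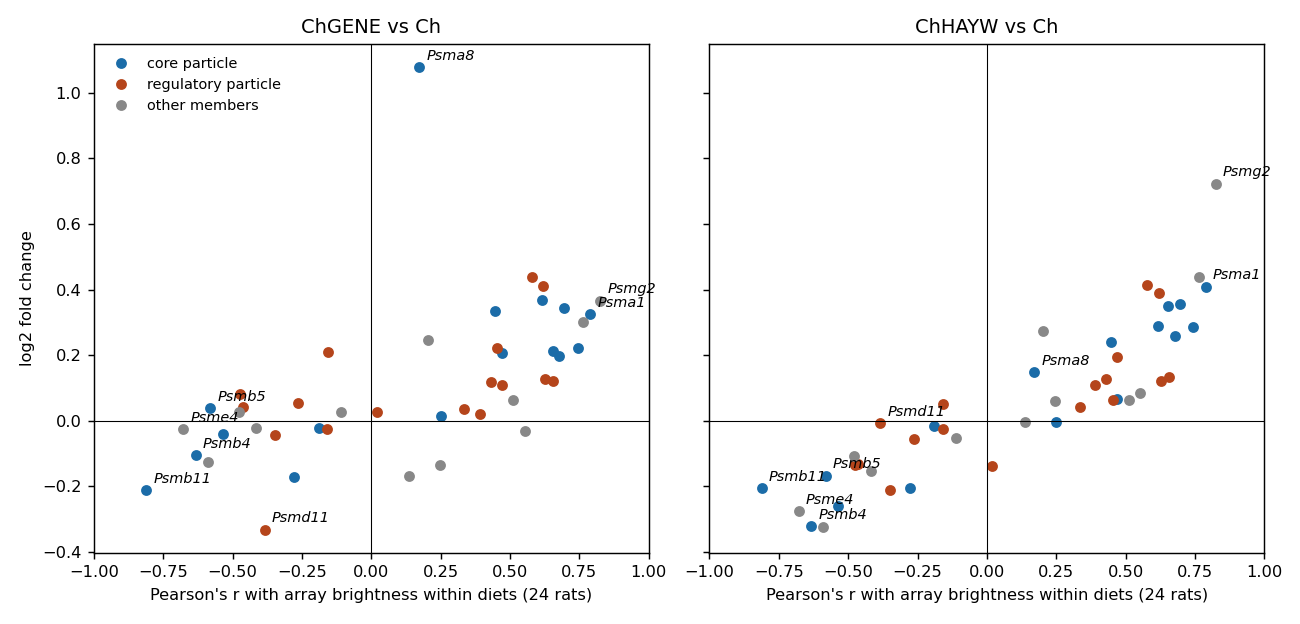
Log2 fold change of the 45 members in ChGENE against Ch (left) and ChHAYW against Ch (right), plotted against Pearson's r between the member's level and the brightness of the array within diets (24 rats). Points are genes, colored by particle. The cloud runs from lower left to upper right in both panels, and Psma8 stands apart at 1.08 on the left.

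Around the proteasome, 23 genes that make, carry, edit or receive ubiquitin were measured, and 0 passed the test in the 3 comparisons (limma, smallest adjusted p = 0.0608). Without adjustment 2 of them reached p under 0.05 with at least 1.3-fold in each kiwifruit diet against Ch, all lower, where 21.1% and 19.7% of all probes were lower by this rule in ChGENE and in ChHAYW. Of the 9891 genes above background on every array, 708 and 627 were lower by it. Zfand5, a zinc finger protein that activates the proteasome, had -0.64 in ChGENE against Ch and -0.48 in ChHAYW against Ch. Of 11 regulators 0 passed, and Nfe2l1 had -0.25 in ChGENE against Ch (adjusted p = 0.152) and -0.24 in ChHAYW against Ch (adjusted p = 0.193). The regulators ran from -0.30 (Stat3) to 0.55 (Nfya) in ChGENE against Ch, with 4 of 11 positive. In ChHAYW against Ch they ran from -0.58 (Stat3) to 0.47 (Nfya), also with 4 positive. Pomp, the chaperone that guides the maturation of the core, had -0.18 and -0.26 in these comparisons. The immunoproteasome subunits Psmb9 and Psmb8 varied far more among the rats than Psmb6 and Psmb5, which they replace. Over the 5 immunoproteasome genes the pooled SD ran from 0.19 (Psme1) to 1.04 (Psmb8), with a median of 0.60. Psmb9, which takes the place of Psmb6, had a mean level of 2.15 ± 0.84 in ChGENE, 1.65 ± 0.97 in ChHAYW and 1.60 ± 0.62 in Ch rats (SD, n = 8), and Psmb8, which takes the place of Psmb5, had SDs between 0.96 and 1.20.

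Of the markers of liver cell types, 0 passed the test in any comparison. Above background on all 24 arrays were 5 of the 6 Kupffer cell, 3 of the 6 lymphocyte and 2 of the 4 bile duct markers. The measured markers of the other types were all above background on every array. All 6 Kupffer cell markers had positive log2 fold changes in ChGENE against Ch (median 0.56) and 4 of 6 in ChHAYW against Ch (median 0.20). Likewise 6 of 6 lymphocyte markers were positive in ChGENE against Ch (median 0.50) and 4 of 6 in ChHAYW against Ch (median 0.11), and so were 3 of 5 sinusoidal endothelial markers in each (medians 0.48 and 0.09). Other types had negative medians in both. Of the stellate cell markers 2 and 1 of 5 were positive (medians -0.0056 and -0.0337). Of the bile duct markers 1 and 2 of 4 were positive (medians -0.11 and -0.25), and of the red cell markers 1 and 0 of 2 (medians -0.10 and -0.34). The 6 hepatocyte markers had medians of -0.39 and -0.28, with 2 and 3 of the 6 positive in ChGENE and in ChHAYW against Ch. Their part in the values of the proteasome genes was not tested.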

How the data were processed

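Liver RNA of each rat was labeled and hybridized to 1 one-color Agilent rat array. Spots were quantified by the authors with Agilent Feature Extraction 10.10.1.1. The deposited intensity values are background-subtracted processed signals on a linear scale, with no scaling between arrays (0 of 1511424 spots differed from the deposited table of values). Here, outlier spots by the scanner software's marks were dropped, the log2 values of the spots of a probe were averaged (45 probe values with every spot marked were kept), and each array's 75th percentile over non-control probes was subtracted. There were 0 saturated spots and 0 pairs of identical arrays. No probe was filtered out for low signal. A probe was above background where the scanner software marked it so.

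For each comparison the 16 arrays of the diets were fitted with limma 3.58.1 in R 4.3.3 (lmFit and eBayes), and p-values were adjusted by Benjamini-Hochberg over all 30367 probes. The study's methods name Student's t-test, which was run as an alternative. The number of rats limits the precision. The procedure was tested on simulated data.

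Named are, for each comparison, the 8 members with the smallest unadjusted p and any that passed, the catalytic subunits Psmb5, Psmb6 and Psmb7, members with no array above background (of which there were 0), and members whose probes disagree in sign. Members, lists and tests were chosen with earlier results of these data known. Gene names and coordinates (rn4) are those of the array files. RefSeq (GRCr8) matched 40 of the 45 accessions and gave 39 promoters. Gene names of the copies also come from RefSeq. Other background corrections and scalings, a filter on dim probes, the mean of all probes of a gene, other fits, the replicate number as a block and leaving out each rat were tried.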

Additional observations from a re-analysis of the deposited data

Results flagged for a closer look

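In 4 of the 135 sets of 8 rats (45 genes in 3 diets) 1 rat stood apart from the others of its diet by Dixon's criterion, where chance flags about 1 in 20 sets. In each case that rat was the highest. Psmb6 in ChGENE had a gap of 0.586 of its range, with ChGENE 1 at a level of 2.82 and the next rat at 2.24. Psmd7, a lid subunit, in ChGENE had a gap of 0.570, with ChGENE 3 at 3.21 and the next rat at 2.79. Psmc3 in Ch had a gap of 0.635, with Ch 3 at 3.48 and the next rat at 2.97, and Psmd6, a lid subunit, in Ch had a gap of 0.587, with Ch 3 at 3.73 and the next rat at 3.35. These are the rats with the 3 highest means of both particles, and the cause was not tested.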

How the results depend on the processing

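The direction of the medians and the count of 0 members passing held under most settings, and 0 members passed in any comparison with the methods' t-test after Benjamini-Hochberg adjustment (3, 4 and 1 without it, at 1.3-fold). With normexp background correction 2 members passed in ChGENE against Ch (Psmb3 at 0.41 and Psmc4 at 0.45) and 1 in ChHAYW against Ch (Psmg2 at 0.40), in a fit that passed 10197 and 11480 of all probes. Scaling to the 8 spike-in probes moved the medians of members, core and regulatory genes to 0.51, 0.66 and 0.54 in ChGENE against Ch, 0.71, 0.76 and 0.70 in ChHAYW against Ch, and -0.17, -0.16 and -0.17 in ChGENE against ChHAYW, where the median of all genes was 0.33, 0.50 and -0.20. With array brightness as a covariate, chosen after seeing the data, the core median was -0.0093 in ChGENE against Ch and -0.0118 in ChHAYW against Ch.

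With the covariate the sign turned in 26, 27 and 3 of the 45 members in the 3 comparisons, and with spike-in scaling in 14, 20 and 18. Among the genes that the naming rule picks for each comparison the turned values were as follows, and the cause was not tested. In ChGENE against Ch, Psma8 had -0.15 with normexp and -0.23 as the mean of its probes, Psmd11 had 0.13 with spike-in scaling, and Psmb6, Psmg2 and Psmb7 had -0.040, -0.071 and -0.10 with the covariate. In ChHAYW against Ch, Psma4, Psma6 and Psmb5 had 0.39, 0.44 and 0.48 with spike-in scaling, and Psme3, Psmb5, Psmb6 and Psmb7 had -0.0201, 0.0310, -0.0164 and -0.0210 with the covariate. In ChGENE against ChHAYW, Psmb7 had 0.0052 with normexp and 0.0269 with the covariate, and Psmd1 and Psmb6 had -0.0263 and -0.11 with spike-in scaling.

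Leaving out 1 rat at a time gave 0 to 2 members passing in ChGENE against Ch (Psmc4 and Psma8 without Ch 3, Psma8 without ChGENE 2), 0 to 1 in ChHAYW against Ch (Psmg2 without Ch 3 or without ChHAYW 3) and 0 to 0 in ChGENE against ChHAYW. The medians of members, core and regulatory genes ranged over 0.03 to 0.12, 0.11 to 0.27 and 0.04 to 0.13 in ChGENE against Ch, 0.02 to 0.10, 0.03 to 0.21 and 0.03 to 0.11 in ChHAYW against Ch, and -0.01 to 0.06, -0.0035 to 0.07 and -0.03 to 0.07 in ChGENE against ChHAYW. Psmb5 ranged over -0.0123 to 0.11 in ChGENE against Ch, and Psmb6 and Psmb7 over -0.0079 to 0.13 and -0.0812 to 0.0516 in ChGENE against ChHAYW.

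Rats of different diets share replicate numbers, but the deviations of same-numbered rats correlated between -0.35 and 0.23, so the numbers were not taken to pair them. With the replicate number as a block, 0 members passed in each comparison, and 4, 0 and 0 of all probes passed in place of 97, 0 and 2. Among all probes passing in ChGENE against Ch, 78.4% were lower, against 98% with normexp, 57.8% with quantile normalization, 95.7% with median scaling and 4.35% with spike-in scaling.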
